A study of Homo sapiens with 3 samples.

Results

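The genes described here encode splicing factors, heterogeneous nuclear ribonucleoproteins (hnRNPs) and proteins of the small nuclear ribonucleoprotein particles (snRNPs). They were taken by symbol, as every protein-coding gene without a hyphen in its name that starts with SRSF, HNRNP, SF3A, SF3B, SNRP, U2AF or LSM. Of the 26108 genes in the deposited table, 73 met this rule, among 15286 that are listed as protein coding. By role they were 12 SR proteins, 21 hnRNPs, 9 proteins of the SF3 complex, 4 U2AF genes, 8 proteins of the Sm ring, 4 proteins specific to the U1 or U2 snRNP, 8 proteins of the LSM ring (LSM1 to LSM8) and 7 other genes with the LSM prefix.

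Splicing removes introns from the primary transcript. The U1 snRNP binds the 5′ splice site, U2AF binds the polypyrimidine tract and the AG at the 3′ end of the intron, and the SF3 complex anchors the U2 snRNP at the branch site. A ring of Sm proteins surrounds the RNA of most snRNPs, whereas a ring of LSM proteins surrounds U6 RNA in the nucleus and, with LSM1 in place of LSM8, takes part in mRNA decay in the cytoplasm. SR proteins mostly favour the inclusion of exons they bind, and many hnRNPs favour their exclusion, so the balance between the families is commonly used to describe how a cell chooses its exons. Many SR and hnRNP genes also control their own mRNA through transcripts that are targets of nonsense-mediated decay.

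The cells were LX-2, an established line of human hepatic stellate cells, the liver cells that can become fibroblasts in metastases. Poly(A) RNA was sequenced from 1 culture with vehicle and from 1 culture each with 50 ng/mL (the low dose) or 100 ng/mL (the high dose) of recombinant human FGF19 (rhFGF19), to ask how FGF19 alters gene expression in these cells. There was thus 1 library in each group and no replicate check, so differences are given as values without a test, and both rhFGF19 comparisons share the single vehicle library. The sample titles give the doses used here. The description fields exchange the doses and give 72 h and 73 h of treatment, whereas the design of the series gives 24 h.

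Of the 12 markers set for stellate cells or fibroblasts, 8 were at or above 1 FPKM in each library (FPKM, read fragments divided by transcript length and by the mapped total), with VIM at 439 to 654 FPKM and COL1A1 at 78.4 to 108 FPKM. COL1A2 was at 0.03 to 0.14 FPKM and DES at 0 to 0.08, so not every stellate marker was present. Of the markers of other cell types, 2 of 6 hepatocyte genes (ALB and SERPINA1), KRT8, CD68 and CD14 reached 1 FPKM in each library, and none of 3 endothelial genes did. In bulk RNA, fewer cells of a type and less RNA per cell cannot be told apart. The values summed to 302243 FPKM in the vehicle library, 276690 at the low dose and 281606 at the high dose. The table holds no read counts, so the depth is unknown and a low value is less certain than its decimals show.

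Splicing genes were broadly expressed. At least 1 FPKM was listed for 66 of the 73 in vehicle, 69 at the low dose and 69 at the high dose. Of these genes, 70 averaged 0.5 FPKM or more over the 3 libraries, the level required for a fold change. LSM8, of the nuclear LSM ring, was the closest above that level, with 0.36 FPKM in vehicle, 0.76 at the low dose and 0.77 at the high dose. The 3 that fell short were SRSF12 (0, 0 and 0.01 FPKM in the same order), LSMEM2 (0, 0.08 and 0.08) and LSMEM1 (0, 0.04 and 0.06). The LSMEM genes encode membrane proteins and share only the prefix with the LSM ring.

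Most of the 70 genes had higher values with rhFGF19 than with vehicle, as did most genes of the table. Differences are given as log2 fold changes of FPKM + 0.1, and the limit was 2-fold. At the low dose, 32 of the 70 exceeded vehicle by more than 2-fold and 0 were more than 2-fold lower, while 39.4% of the 12447 genes tested were higher and 1.78% lower by this measure. At the high dose, 32 were higher and 1 was lower, beside 38.5% and 1.58% of all genes tested. The median log2 fold change of the 70 genes was 0.92 at the low dose and 0.90 at the high dose, beside 0.62 and 0.61 for all genes tested. Among the protein-coding genes tested, 41.9% were more than 2-fold higher at the low dose and 41% at the high dose, with medians of 0.72 and 0.70. How the count of splicing genes compares with the share of all genes depends on the setting. With a pseudocount of 1, 25 of the 70 were more than 2-fold higher at the low dose beside 17.6% of all genes, and with quantile normalization 16 were beside 9.52%.

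The rhFGF19 libraries were nearly alike for these genes. In both of them 54 of the 70 genes were higher than in vehicle and 15 were lower, and SNRPF had opposite signs. Of all 12447 genes tested, 8140 were higher than in vehicle at the low dose and 8165 at the high dose. More than 2-fold higher in both were 30 splicing genes, beside 36.2% of all genes tested. HNRNPM and LSM5 passed 2-fold at the low dose only, and SRSF3 and SNRPE at the high dose only. None was more than 2-fold apart between the doses, where 0.852% of all genes tested were higher and 0.884% lower at the high than at the low dose. The SD of the log2 difference between the doses was 0.10 over the splicing genes and 0.34 over all genes tested. The medians of the absolute difference were closer, at 0.069 and 0.089. Among the splicing genes the largest difference was 0.35, for U2AF1L4. Only 29 of the 70 were higher at the high than at the low dose.

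**Figure D1:**
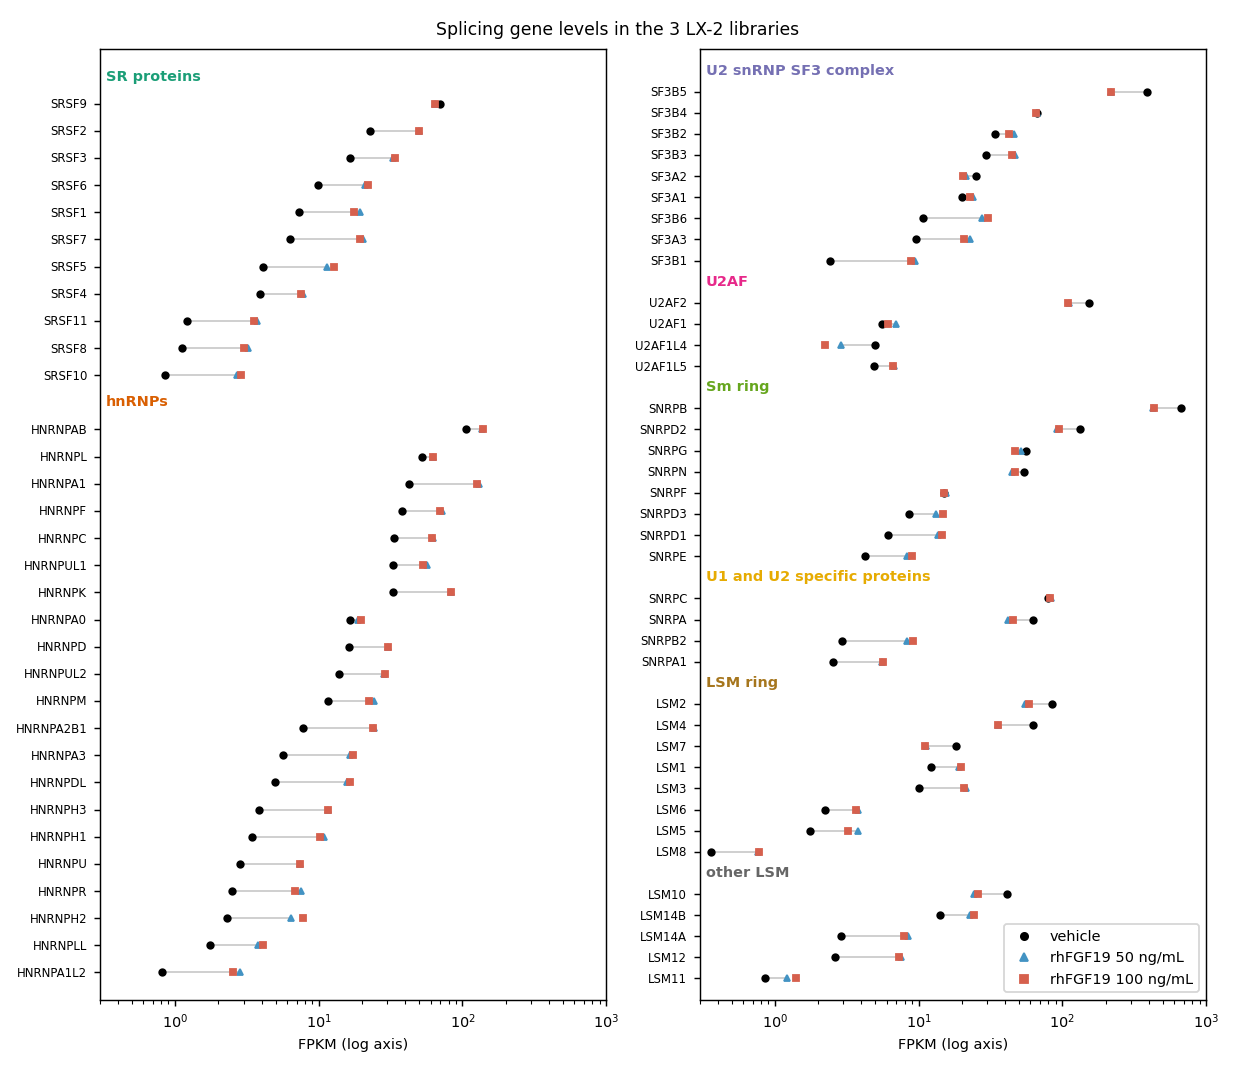
Level of each of the 70 splicing genes that passed the filter, grouped by role, in FPKM on a log axis, with 1 point for each of the 3 libraries (circle, vehicle; triangle, 50 ng/mL; square, 100 ng/mL) joined by a line. The rhFGF19 points lie on each other for most genes and to the right of vehicle for all 21 hnRNPs, while SNRPB, SF3B5 and U2AF2, the 3 genes with the highest vehicle values, lie to the left.

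SR proteins carry an RNA-binding domain and a tail rich in arginine and serine, and bind enhancers in exons. Of the 11 SR genes tested, 8 were more than 2-fold higher at the low dose and 9 at the high dose, with median log2 fold changes of 1.40 and 1.28. Of all genes tested, 39.4% and 38.5% were more than 2-fold higher, and these shares also stand beside the counts of each role group below. SRSF7 (ENSG00000115875, chromosome 2 from 38743599 to 38751494) had the highest averaged fold change of the family. It was at 6.31 FPKM in vehicle, 20.3 at the low dose and 19.3 at the high dose, log2 fold changes of 1.668 and 1.598. SRSF1, the prototype of the family, was at 7.24, 19.2 and 17.7 FPKM in vehicle and at the low and high dose, and both rhFGF19 values lay above vehicle by similar amounts (1.40 and 1.28). SRSF2, which binds exons of many genes and is mutated in myeloid disease, was at 22.7 FPKM in vehicle and at 50.2 and 50.1 with rhFGF19, a log2 fold change of 1.14 at either dose. SRSF3, the smallest of the family, went from 16.5 FPKM in vehicle to 33.0 at the low dose and 34.1 at the high dose, so that it lay at 2-fold, with log2 fold changes of 0.99 and 1.05. SRSF5 had 4.07, 11.5 and 12.8 FPKM, and SRSF11 had 1.21, 3.69 and 3.52 FPKM in vehicle and at the low and high dose. Their log2 fold changes were 1.47 and 1.62 for SRSF5 and 1.53 and 1.47 for SRSF11.

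SRSF9 was the exception among the SR genes. It had the highest level of the family, at 69.4 FPKM in vehicle, 64.7 at the low dose and 64.0 at the high dose, and was the only SR gene lower than vehicle at both doses (log2 fold changes of -0.10 and -0.12). When values were rescaled to the same total or quantile normalized its average difference was slightly above 0 (0.0054 and 0.11). Within a library the ratio of SRSF9 to SRSF1 was 9.59 in vehicle, 3.37 at the low dose and 3.62 at the high dose, so these 2 SR genes were much closer in level with rhFGF19 than with vehicle.

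The hnRNPs coat nascent transcripts. All 21 were tested and all 21 were higher than vehicle at both doses. Of all 12447 genes tested, 8140 were higher than vehicle at the low dose and 8165 at the high dose. Among the hnRNPs, 14 passed 2-fold at the low dose and 13 at the high dose, beside 39.4% and 38.5% of all genes tested. The median log2 fold changes of the hnRNPs were 1.35 and 1.33. The averaged values of all 21 stayed above 0 with the median ratio set to 0, rescaling to the same total or quantile normalization, whereas 13 of 21 did on removal of the GC trend and 18 of 21 on removal of the length trend. HNRNPA1 (ENSG00000135486, chromosome 12 from 54280193 to 54287088), which competes with SR proteins and promotes exon skipping, was at 42.3 FPKM in vehicle, 130 at the low dose and 127 at the high dose. Its log2 fold changes were 1.62 and 1.58. Its close relative HNRNPA2B1, which also takes part in RNA transport, was at 7.78, 24.2 and 23.9 FPKM, log2 fold changes of 1.63 and 1.61. The ratio of HNRNPA1 to HNRNPA2B1 therefore hardly differed among the libraries (5.44, 5.37 and 5.31).

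HNRNPDL, a paralog of the AU-rich element binding protein HNRNPD, had the highest averaged fold change of the hnRNPs. It was at 4.93 FPKM in vehicle, 15.6 at the low dose and 16.4 at the high dose, log2 fold changes of 1.64 and 1.71. HNRNPK, a poly(C)-binding protein, was at 32.8 FPKM in vehicle and 83.8 and 82.6 with rhFGF19. HNRNPU, which also organizes chromatin, was at 2.82, 7.39 and 7.46 FPKM. HNRNPH1, which binds G-rich sequence, was at 3.44 FPKM in vehicle, 10.8 at the low dose and 10.2 at the high dose. The log2 fold changes of HNRNPK, HNRNPU and HNRNPH1 at the low dose were 1.35, 1.36 and 1.63, well above the limit for each of them.

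HNRNPC, which binds uridine tracts, did not reach 2-fold, at 33.5 FPKM in vehicle and 62.8 and 61.5 with rhFGF19 (log2 fold changes of 0.90 and 0.87). HNRNPAB had the highest level of the family, at 106 FPKM in vehicle, 137 at the low dose and 139 at the high dose, log2 fold changes of 0.37 and 0.39. The lowest averaged fold change belonged to HNRNPA0 (ENSG00000177733, chromosome 5 from 137745651 to 137754363), a gene of 16.4, 18.8 and 19.7 FPKM in vehicle and at the low and high dose. Its log2 fold changes of 0.19 and 0.26 were small for a family in which HNRNPA1, HNRNPA2B1 and HNRNPA3 all passed 1.5. HNRNPH2 had the largest difference between the doses in this family (0.27), with 2.31, 6.42 and 7.78 FPKM, and the readthrough row RPL36A-HNRNPH2, which overlaps it on the same strand, was at 0, 6.36 and 4.73 FPKM, so the split of reads between these rows is uncertain.

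The SF3 complex had genes at both ends of the range. Of its 9 genes, 3 (SF3B1, SF3B6 and SF3A3) were more than 2-fold higher at each dose and 3 (SF3B5, SF3A2 and SF3B4) were lower than vehicle in both, with medians of 0.44 at the low dose and 0.31 at the high dose. SF3B1 (ENSG00000115524, chromosome 2 from 197388515 to 197435079), the large subunit that clamps the branch site, was at 2.43 FPKM in vehicle, 9.39 at the low dose and 8.82 at the high dose. Its values of 1.91 and 1.82 on the log2 scale were the highest of all 70 splicing genes. SF3B5 (ENSG00000169976, chromosome 6 from 144094884 to 144095573), a small subunit of the same complex, was at 391 FPKM in vehicle and 217 at either dose, a log2 fold change of -0.85 at both. The ratio of SF3B5 to SF3B1 was 161 in vehicle, 23.1 at the low dose and 24.6 at the high dose. These 2 subunits of 1 complex were thus the furthest apart in level with vehicle and much closer with rhFGF19.

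Other subunits lay between them. SF3B2 was at 34.0 FPKM in vehicle, 46.0 at the low dose and 42.2 at the high dose (log2 fold changes of 0.44 and 0.31), and SF3B3 was at 29.5, 46.5 and 44.9 FPKM (0.65 and 0.60). SF3B4 had nearly the same value in each library, at 66.3, 66.1 and 65.9 FPKM. Of the SF3A trimer, which joins the particle last, SF3A1 was at 20.04, 23.8 and 22.6 FPKM and SF3A3 at 9.53, 22.6 and 20.8 FPKM, with log2 fold changes at the low dose of 0.25 and 1.24. SF3A2 was at 25.04, 21.4 and 20.3 FPKM and so lower with rhFGF19.

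For SF3B1 and SF3B5, the promoters are shown because the genes sit at the ends of the range. The sequences are from RefSeq on GRCh38.p14, span the start of the gene, and are given on the strand of the gene. Capitals mark matches to the letters of a CCAAT box (CCAAT) or a GC box (GGGCGG) on either strand. The SF3B1 promoter, chr2:197434979-197435278 on the minus strand, has a GC content of 61.7% and the SF3B5 promoter, chr6:144095524-144095823 on the minus strand, one of 57.3%.
SF3B1: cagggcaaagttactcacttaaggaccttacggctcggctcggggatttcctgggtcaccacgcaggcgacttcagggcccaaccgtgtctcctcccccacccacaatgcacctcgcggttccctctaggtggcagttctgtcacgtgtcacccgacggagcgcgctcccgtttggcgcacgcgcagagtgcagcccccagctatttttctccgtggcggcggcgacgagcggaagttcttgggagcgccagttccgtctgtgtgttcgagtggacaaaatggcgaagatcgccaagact
SF3B5: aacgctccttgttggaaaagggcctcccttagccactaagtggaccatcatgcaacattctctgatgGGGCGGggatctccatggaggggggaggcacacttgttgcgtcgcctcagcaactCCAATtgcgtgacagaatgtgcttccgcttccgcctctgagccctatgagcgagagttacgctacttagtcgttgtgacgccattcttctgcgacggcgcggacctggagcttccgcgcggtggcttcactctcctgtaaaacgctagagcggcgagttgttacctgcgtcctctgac
The SF3B1 window holds neither of the motifs and the SF3B5 window holds 1 of each. Over the 65 splicing genes whose promoter was found by symbol, a GC box was present in 42 (64.6%) and a CCAAT box in 26 (40%), beside 44.6% and 35.7% of the 27305 promoters in the table. The letters CCGGAAG, bound by ETS factors, were in 21 (32.3%) of the splicing promoters and 10.7% of all promoters, and TTCNNNGAA, the core of a STAT site, in 2 (3.08%) and 7.88%. Both motifs were read on either strand. The ETS letters were in 6 of the 26 promoters of genes more than 2-fold higher in both rhFGF19 libraries and in 6 of the 15 promoters of genes lower in both, so they occurred in either direction. A GC box was in 16 of the 26 and 10 of the 15, and a CCAAT box in 10 and 5. The contrast between the SF3B1 and SF3B5 windows was thus not seen over these 2 sets. Median promoter GC content was 62% for the genes higher in both and 61.3% for those lower in both. It was 62% for all 65 splicing promoters and 58.3% for all promoters. The latter were not limited to genes expressed in these cells, so the motif shares are not compared at like GC content or expression.

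U2AF recognizes the 3′ end of the intron through a large subunit, U2AF2, and a small one, U2AF1. None of the 4 genes was more than 2-fold higher than in vehicle. U2AF2 (ENSG00000063244, chromosome 19 from 55654146 to 55674716) was at 152 FPKM in vehicle and 110 at either dose, log2 fold changes of -0.47 and -0.48. U2AF1 (ENSG00000160201, chromosome 21 from 43092956 to 43107570) was at 5.60 FPKM in vehicle, 6.93 at the low dose and 6.14 at the high dose, with log2 fold changes of 0.30 and 0.13 that became negative when the median ratio to vehicle was set to 0 and when the libraries were quantile normalized (averages of -0.0054 and -0.31). U2AF1L5, listed at a second place on chromosome 21, was at 4.90, 6.70 and 6.66 FPKM and had the highest averaged fold change of the group, 0.44 at each dose, which became -0.12 on average with quantile normalization. U2AF1L4, a shorter paralog on chromosome 19, was at 4.94, 2.86 and 2.22 FPKM. It was the only splicing gene more than 2-fold lower than vehicle in either library, at the high dose (log2 fold change of -1.12, after -0.77 at the low dose). The row AD000671, which overlaps it on the same strand, was at 0.97, 0.10 and 2.45 FPKM, and U2AF1L4 did not pass 2-fold with a pseudocount of 1 or with the doses averaged.

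U2AF1 and U2AF1L5 could not be told apart by their coding sequence. The start of the coding sequence is shown for the 3 small subunits because it decides how reads can be assigned, with capitals for bases that differ from U2AF1 in the alignment to U2AF1L4 (GENCODE 29 transcripts, bases 1 to 60).
U2AF1: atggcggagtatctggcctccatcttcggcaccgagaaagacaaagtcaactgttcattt
U2AF1L5: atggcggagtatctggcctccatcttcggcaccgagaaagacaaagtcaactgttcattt
U2AF1L4: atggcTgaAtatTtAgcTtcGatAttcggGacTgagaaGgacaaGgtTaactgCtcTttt
Over the whole coding sequence, U2AF1 and U2AF1L5 were identical at all 723 bases, so the split of their reads is set by the counting program and the separate values are uncertain. U2AF1L4 differed from U2AF1 at 14 bases of this window and was 73.7% identical over 662 aligned bases. The ratio of U2AF2 to U2AF1 was 27.2 in vehicle, 15.9 at the low dose and 17.9 at the high dose. It takes the U2AF1 row alone and would be lower in each library with U2AF1L5 added.

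The Sm ring binds every spliceosomal snRNA except U6 and its minor counterpart and marks it for return to the nucleus. Its fold changes were lower than those of the SR proteins and hnRNPs. More than 2-fold higher were 1 of 8 genes at the low dose and 2 at the high dose, with medians of -0.036 and -0.11. The median of the averaged values was just above 0 when libraries were rescaled to the same total (0.030) or quantile normalized (0.031). SNRPB (ENSG00000125835, chromosome 20 from 2461634 to 2470853), which encodes SmB, had the highest level of all splicing genes, at 674 FPKM in vehicle, 428 at the low dose and 434 at the high dose, log2 fold changes of -0.66 and -0.63. SNRPN, the paralog of SNRPB from an imprinted locus, was at 54.5, 44.8 and 46.5 FPKM and thus also lower (-0.28 and -0.23), although its average was 0.0052 on quantile normalization. SNRPD2 was at 133, 92.5 and 94.9 FPKM, also below vehicle. SNURF, which shares the locus and strand of SNRPN, was at 1.04, 0.06 and 1.29 FPKM.

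SNRPD1 had the highest averaged fold change of the Sm ring, at 6.09 FPKM in vehicle, 13.6 at the low dose and 14.6 at the high dose (1.15 and 1.24), and SNRPE was at 4.25, 8.26 and 8.98 FPKM (0.94 and 1.06). SNRPF was at 14.98, 15.56 and 14.97 FPKM and SNRPG at 56.0, 51.3 and 46.7 FPKM. SNRPE, SNRPF and SNRPG form a subcomplex when the ring assembles, and among them only SNRPE was well above vehicle. SNRPD3 lay between, at 8.55, 13.2 and 14.7 FPKM.

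Among the proteins specific to the U1 and U2 particles, 2 of 4 were more than 2-fold higher at each dose, and both belong to U2. SNRPB2 was at 2.94 FPKM in vehicle, 8.31 at the low dose and 9.18 at the high dose, log2 fold changes of 1.47 and 1.61, and its partner SNRPA1 was at 2.53, 5.57 and 5.63 FPKM (1.11 and 1.12). The U1 proteins were not higher by this measure. SNRPC, which stabilizes the pairing of U1 with the 5′ splice site, was at 79.2, 82.9 and 82.5 FPKM, and SNRPA, which binds a stem-loop of U1 RNA, was at 62.3 FPKM in vehicle, 41.8 at the low dose and 45.01 at the high dose (log2 fold changes of -0.57 and -0.47). SNRPA and SNRPB2 are close paralogs that belong to different particles, and they lay on opposite sides of vehicle. On removal of the trend on GC content, the averages were 0.034 for SNRPB2, -0.16 for SNRPA1, -0.30 for SNRPC and -0.44 for SNRPA.

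The LSM ring was mixed. Of LSM1 to LSM8, 2 genes were more than 2-fold higher at the low dose (LSM3 and LSM5) and 1 at the high dose (LSM3), and LSM2, LSM4 and LSM7 were lower than vehicle at both doses. The medians were 0.68 and 0.69. LSM3, with the highest averaged fold change, was at 10.0 FPKM in vehicle, 21.4 at the low dose and 20.8 at the high dose (1.09 and 1.05). LSM2 had the highest level, at 85.4, 55.2 and 58.9 FPKM (-0.63 and -0.53), and LSM4, with the lowest averaged fold change, was at 62.6, 35.8 and 35.7 FPKM (-0.81 at either dose). LSM8 and LSM1 decide whether the ring is nuclear or cytoplasmic. LSM1 was at 12.2, 19.1 and 19.8 FPKM, far above LSM8 (0.36, 0.76 and 0.77) in each library.

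Of the other LSM genes, 5 were tested. LSM10, which replaces an Sm protein in the U7 snRNP of histone mRNA processing, had the highest level and the lowest averaged fold change, at 41.5 FPKM in vehicle, 24.2 at the low dose and 26.02 at the high dose (-0.78 and -0.67). LSM11, its partner in the U7 ring, was at 0.85, 1.21 and 1.40 FPKM (0.46 and 0.66), so the pair lay on opposite sides of vehicle. LSM11 averaged below 0, like LSM10, on quantile normalization (-0.31) and on removal of the trend on GC content (-0.74) or on transcript length (-0.49). LSM14A, a protein of P-bodies, had the highest averaged fold change, at 2.88 FPKM in vehicle, 8.43 at the low dose and 7.85 at the high dose (1.52 and 1.42). Its paralog LSM14B was at 14.2, 22.7 and 24.1 FPKM (0.68 and 0.76).

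**Figure D2:**
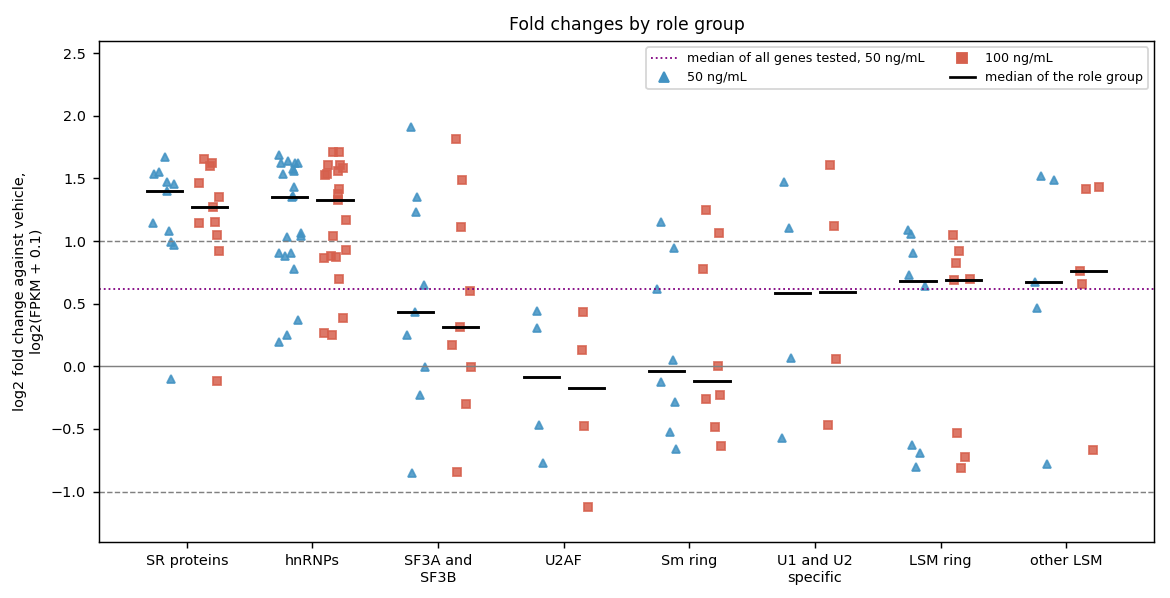
Log2 fold change against vehicle of each tested splicing gene by role group, at 50 ng/mL (triangles) and 100 ng/mL (squares), with the median of each group as a bar, the median of all genes tested at 50 ng/mL as a dotted line and 2-fold as dashed lines. The SR protein and hnRNP medians lie above 1.2 at both doses, and the U2AF and Sm ring medians lie just below 0.

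The levels of the splicing genes lay closer together with rhFGF19 than with vehicle. The SD of log2 FPKM over the 70 genes was 2.20 in vehicle, 1.75 at the low dose and 1.76 at the high dose. This was also seen over all genes tested with a GC value (2.46, 2.06 and 2.07). Of the 23 splicing genes with a mean of 30 FPKM or more, 3 were more than 2-fold higher at the low dose and 12 averaged below vehicle. Of the 36 with a mean of 5 to 30 FPKM, 22 were more than 2-fold higher, as were 7 of the 11 with a mean under 5 FPKM. Over all genes the same 3 classes held 7.39%, 29.4% and 52.9% of genes more than 2-fold higher at the low dose.

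The sum over all 73 genes hid these opposite directions. It was 2685 FPKM in vehicle, 2678 at the low dose and 2678 at the high dose, or 0.889%, 0.968% and 0.951% of each library's FPKM. The hnRNPs took 0.143% of the vehicle library, 0.294% at the low dose and 0.286% at the high dose, and the SR proteins 0.0474%, 0.0857% and 0.0842%. The Sm ring took 0.315%, 0.241% and 0.240%. SNRPB and SF3B5 together made up 39.7% of the summed FPKM of the splicing genes in vehicle and 24.1% and 24.3% with rhFGF19. Without these 2 genes, the remaining splicing genes took 0.536%, 0.735% and 0.719% of the libraries.

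**Figure D3:**
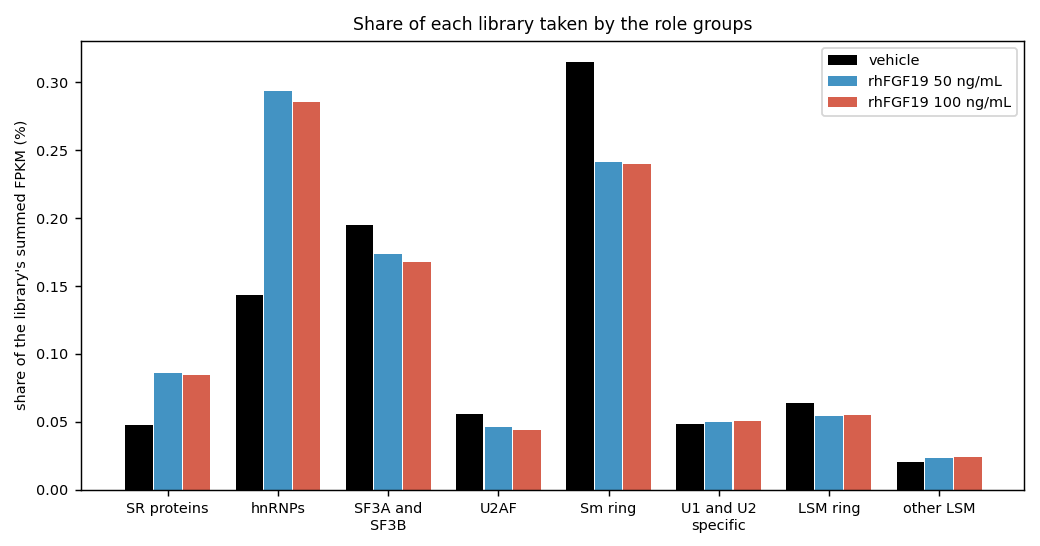
Share of each library's summed FPKM taken by each role group, in percent, with 1 bar for each library. The hnRNP bars are at 0.294% and 0.286% with rhFGF19 beside 0.143% with vehicle, whereas the Sm ring bars are at 0.241% and 0.240% beside 0.315%.

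Fold changes against vehicle followed the base composition of the transcripts, in the splicing genes as in the whole table. GC content was taken as the median over the transcripts listed for a gene. Across the 70 splicing genes, Spearman's correlation between GC content and log2 fold change was -0.65 at the low dose and -0.68 at the high dose, and -0.07 for the difference between the doses. Across 12397 genes it was -0.77 at either dose. These are correlations across genes of 3 libraries, and genes are not independent replicates. Of the 34 splicing genes under 45% GC, 25 were more than 2-fold higher at the low dose, of the 23 from 45 to 55% GC 7 were, and of the 13 at 55% or more 0 were. The corresponding counts over all genes were 2925 of 3421, 1793 of 4460 and 178 of 4516. The 11 splicing genes on chromosome 19, with a median GC content of 56.7%, had median log2 fold changes of -0.47 at either dose, and the 59 elsewhere, with a median GC content of 44.6%, had 1.03 and 1.05. All 875 tested genes on chromosome 19 likewise had medians of -0.36 and -0.38, and those elsewhere 0.73 and 0.71. Whether GC content accounts for the differences between libraries was not tested.

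Relative to genes of similar GC content the order of the role groups was different. When the trend of fold change on GC content over all genes was removed, 0 splicing genes were more than 2-fold higher at the low dose and 4 were lower (HNRNPA0, SNRPF, SNRPG and LSM2), beside 3.85% and 5.07% of all genes. At the high dose, LSM14B was higher and 6 genes were lower, the same 4 with U2AF1 and U2AF1L4, beside 3.39% and 4.52%. The medians of the SR proteins were 0.07 at the low dose and 0.03 at the high dose, and those of the hnRNPs 0.07 and 0.15. The averaged values of all 8 Sm genes, all 8 LSM ring genes and all 4 U2AF genes lay below 0, with medians of -0.60, -0.55 and -0.78. Of the 12397 genes with a GC value, 6288 lay above 0 at the low dose and 6246 at the high dose. U2AF1 and U2AF1L5, identical in coding sequence, count as 2 of the U2AF genes. Median transcript length was 747.5 nt for the Sm ring beside 1155.5 nt for all genes tested, and the part of length was not tested. In this view the SR proteins and hnRNPs lay near genes of like composition, and the small ring proteins below them.

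Some genes of low GC content had far smaller fold changes than others of like composition. SNRPG (chromosome 2 from 70281362 to 70293740), with 40.3% GC, had log2 fold changes of -0.13 and -0.26, whereas the 756 genes within 1 percentage point of it had medians of 1.512 and 1.501. SNRPF, with 37.2% GC, was at 0.05 at the low dose beside a median of 1.53 for 365 such genes. HNRNPA0, with 41.1% GC, had 0.19 and 0.26 beside 1.48 and 1.47. On the other side, LSM14B, with 59.2% GC, had 0.68 and 0.76 beside medians of -0.35 and -0.33, and HNRNPUL1, with 56.4% GC, was at 32.9, 56.5 and 53.3 FPKM and had 0.78 and 0.69 beside -0.11 and -0.10. TGFB1, which overlaps HNRNPUL1 on the opposite strand, was at 134, 93.8 and 94.0 FPKM, and whether reads were counted by strand is not given in the sources used here. SF3B1 differed less from its neighbours (1.91 and 1.82 beside 1.52 and 1.51) than its place at the top of the list would show. SF3B5 remained lower, at -0.85 beside -0.13 and -0.11, and U2AF2 was close to them (-0.47 beside -0.45 at the low dose).

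**Figure D4:**
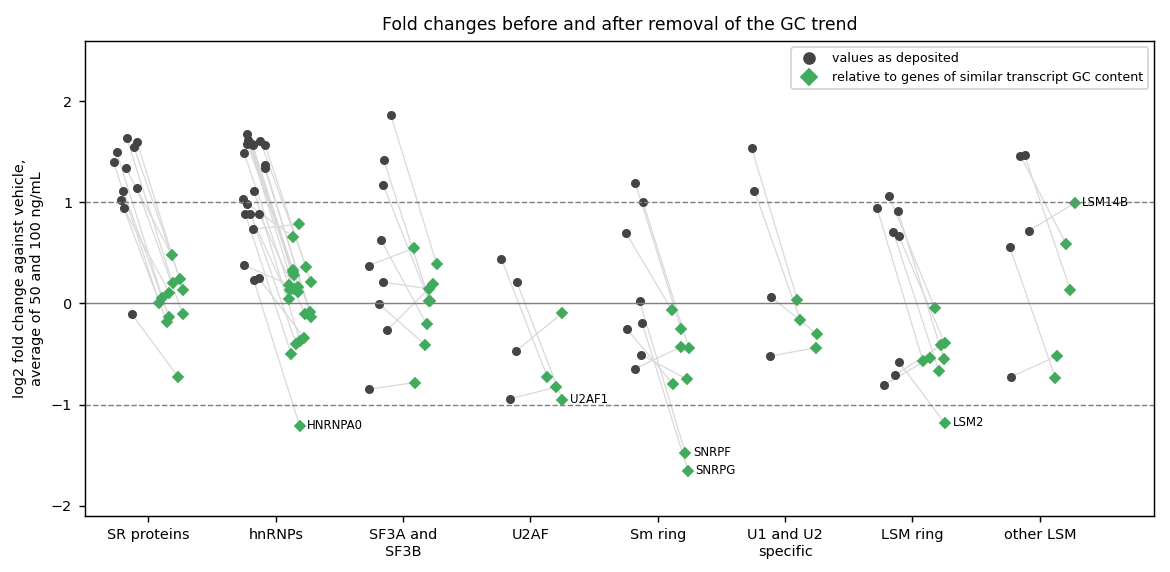
Averaged log2 fold change against vehicle of each splicing gene as deposited (dark circles) and after removal of the trend on transcript GC content (green diamonds), by role group, with 2-fold as dashed lines. The SR protein and hnRNP values come to lie around 0, and all Sm ring, LSM ring and U2AF values lie below 0, SNRPG and SNRPF lowest.

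Near-identical copies and overlapping genes bear on single values. HNRNPA1L2 on chromosome 13, a paralog of HNRNPA1, was at 0.81, 2.83 and 2.53 FPKM. Its log2 fold changes of 1.69 and 1.53 were close to those of HNRNPA1, and how reads were shared between these genes is uncertain. Over the coding sequence, identity was 87.3% between HNRNPH1 and HNRNPH2, 84.8% between SRSF2 and SRSF8, 82.2% between SNRPB and SNRPN and 78.4% between HNRNPH1 and HNRNPF. Within a library, SNRPB was 12.4 times SNRPN in vehicle and 9.55 and 9.34 times with rhFGF19, and HNRNPF was 11.1, 6.60 and 6.84 times HNRNPH1. SRSF2 was 20.2, 15.5 and 16.6 times SRSF8. Of the 73 genes, 30 overlap another listed row, 15 of them on the same strand, and among the 42 tested genes that overlap none, 19 were more than 2-fold higher at the low dose and 20 at the high dose.

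Annotated decay transcripts did not divide the genes sharply. A transcript marked as a target of nonsense-mediated decay is listed in the deposited table for 38 of the 70 genes. Of these 38, 20 were more than 2-fold higher at the low dose and 19 at the high dose. Of the 32 without one, 12 and 13 were. Median log2 fold changes at the low dose were 1.05 and 0.79. Among other protein-coding genes tested, 1454 of 3668 with such a transcript and 3045 of 7070 without one were more than 2-fold higher at the low dose. The table gives 1 value for each gene, so the level of decay transcripts was not measured here.

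Other parts of the splicing machinery were examined as 7 lists, of which 102 of 113 genes were tested. More than 2-fold higher were 54 at each dose, beside the 39.4% and 38.5% of all genes tested, and 0 were more than 2-fold lower, with medians of 1.11 and 1.07. On removal of the GC trend 4 of the 102 were higher and 4 lower at the low dose, 2 and 2 at the high dose, with medians of 0.11 and 0.10. Of the PRP19 complex, the helicases and the step factors, which drive the spliceosome through its rearrangements, 14 of 23 were higher at each dose, with medians of 1.62 and 1.56. CDC5L, of the PRP19 complex, was at 1.12 FPKM in vehicle, 5.39 at the low dose and 5.50 at the high dose, whereas PUF60, a partner of U2AF2, was at 77.3, 43.1 and 42.2 FPKM. Of the proteins of the U1, tri-snRNP and minor particles 7 of 20 were higher at each dose, with medians of 0.25 and 0.22. SNRNP70, the third protein specific to U1, was at 89.4, 70.3 and 66.5 FPKM, below vehicle like SNRPA. Among the SR-related proteins 10 of 15, among the SR protein kinases 3 of 5 and among the other regulators 13 of 24 at the low dose and 14 at the high dose passed 2-fold. For the complex that assembles Sm rings it was 6 of 10 at the low dose and 5 at the high dose, and for the exon junction complex 1 of 5 at each dose. The counts of the Sm-assembling complex differ by SMN2, at 0.49, 3.27 and 1.07 FPKM in vehicle and at the low and high dose. SMN1 was at 2.41, 5.82 and 7.66 FPKM, and how reads were shared between SMN1 and SMN2 was not tested.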

How the data were processed

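mRNA of 3 LX-2 cultures (1 with vehicle, 1 each with 50 and 100 ng/mL rhFGF19) was sequenced by the authors on an Illumina instrument. Reads were mapped with HISAT2. The authors deposited FPKM values, 1 for each of 26108 genes and library, with 2 decimals, and no counts. The submitters' processing notes name HISAT2 2.0, StringTie 1.3.0 and Bowtie 0.12.2, and the builds hg19 and mm8, without their roles, yet 99.9% of the 25531 identifiers found in GENCODE 29 overlap their GRCh38 positions. FPKM keeps no depth, so no interval or count test was possible.

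Single libraries were compared on log2(FPKM + 0.1), without further scaling, where a gene averaged 0.5 FPKM or more, and more than 2-fold was called. This scale understates the change of low genes. No p-value was computed. Transcript GC content and length were medians over the transcripts of GENCODE 29, and trends were removed by lowess with a span of 0.3. Rows were kept apart by identifier. Promoters are those of RefSeq, matched by symbol for 65 genes. Coding sequences were aligned with Biopython 1.88. The sequence comparison of 1 pair of paralogs is not reported here. Calculations used Python 3.11.15 with statsmodels 0.14.6, pandas 2.3.3 and NumPy 2.4.6, and the procedure was tested on simulated data.

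The splicing genes, the lists and the tests were chosen with earlier results of these data known. Genes named with values were, for each role group, those with the highest mean and the highest and lowest averaged fold change, any more than 2-fold lower or apart between the doses, those nearest to the filter, and 25 textbook factors. Other splicing genes named (such as SNRPG, SNRPF, SF3B4 and LSM14B), and the members of other lists, were chosen after their values were seen. Before the values were read, 12 alternatives were listed, and 3 were added afterwards.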

Additional observations from a re-analysis of the deposited data

Results flagged for a closer look

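Rows with the same symbol prefixes that are not protein coding, or have a hyphen in the symbol, were left out of all counts of splicing genes. There were 55 of them, of which 15 passed the filter, with 7 more than 2-fold higher than vehicle at the low dose and 6 at the high dose, beside 39.4% and 38.5% of all genes tested. SNRPGP2 was more than 2-fold lower at the low dose, at 1.71, 0.59 and 1.93 FPKM. Rows are named here because they lie outside the comparison and were more than 2-fold higher than vehicle in both rhFGF19 libraries, which 5 of the 15 were, a share near that of all genes tested (36.2%). SNRPA1P1, a processed pseudogene, was at 1.36 FPKM in vehicle, 4 at the low dose and 3.53 at the high dose, an averaged log2 fold change of 1.40. HNRNPA1P7 was at 8.34, 18.5 and 17.1 FPKM (1.08), and HNRNPA1P48 at 1.25, 4.01 and 2.97 FPKM (1.40). LSM12P1 was at 6.5, 14.5 and 13.3 FPKM (1.08). HNRNPKP4 was at 1.55, 6.40 and 3.40 FPKM (1.53), so its rhFGF19 values lay further apart than those of any of the 70 splicing genes tested. The part that reads of the parent genes take in these rows was not tested. Adding processed pseudogenes to their parent genes, and U2AF1L5 and HNRNPA1L2 to theirs, left every count and median of the splicing genes within the limits used for a change.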

How the results depend on the processing

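With 1 library in each group no replicate could be left out and no spread between cultures was measured. No paired analysis was possible because each group has a single library. Depth is unknown. A median was taken to move where it shifted by more than a limit, a count where it changed by over 1.5 times. That limit was the difference between the splicing genes' medians at the 2 doses, divided by the square root of 2. It is not a spread over genes, and small shifts passed it. Values below are at 50 and then 100 ng/mL, where the reported ones are 32 and 32 genes higher, 0 and 1 lower, and medians of 0.92 and 0.90.

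Another pseudocount moved the medians, to 0.97 at 50 ng/mL with 0.01 and to 0.82 and 0.85 with 1, where 0 genes were lower at 100 ng/mL. Medians were 0.90 and 0.87 without a filter and 0.94 and 0.88 with a minimum mean of 1 FPKM. Setting the median ratio to vehicle to 0 gave medians of 0.71 and 0.68 with 3 genes lower at each dose. In that setting 23 were higher at each dose, beside 30.4% and 29.9% of all genes. Rescaling to TPM gave medians of 1.09 and 1.01. Quantile normalization gave 16 and 15 higher, 1 lower at 50 ng/mL and medians of 0.64 and 0.62, where 9.52% and 8.68% of all genes were higher and the median of all genes was 0.11 and 0.088. Removing the GC trend gave 0 and 1 higher, 4 and 6 lower and medians of -0.13 and -0.10. Removing the trend on transcript length gave 12 and 15 higher, 9 and 5 lower and medians of 0.32 and 0.36. A limit of 1.5-fold gave 7 and 6 lower. With both doses averaged, 0 were lower and the median was 0.93. The share of the libraries was 1.02% in vehicle, 1.18% and 1.17% when only nuclear protein-coding genes were counted.

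Added after seeing the data, the GC content of the longest protein-coding transcript gave 1 and 0 higher, 4 and 5 lower and medians of -0.061 and -0.087. In that setting 2.22% and 1.86% of all genes tested were higher. Leaving out genes that overlap another row left 19 and 20 of 42 higher and 0 lower at 100 ng/mL, since fewer genes were counted.

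Of the named genes past 2-fold on average, those that changed sign did so on removal of the GC trend. HNRNPK was then at -0.088, HNRNPU at -0.14, LSM3 at -0.042, SNRPD1 at -0.25, SRSF2 at -0.11 and SRSF3 at -0.18. With the longest transcript the values were -0.053 for HNRNPK, -0.041 for HNRNPU, -0.045 for LSM3, -0.25 for SNRPD1, -0.063 for SRSF2, -0.45 for SRSF3 and -0.089 for SRSF1. The cause was not tested.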
